A study of Mus musculus with 6 samples.

Results

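Collagen chain genes were followed in NMuMG cells, an epithelial line from the normal mammary gland of the mouse, after exposure to TGFβ1. The count table held 43 genes whose symbol reads Col, a type number, the letter a and a chain number, out of 21240 genes in all. The symbol was the only criterion for membership. Col6a3, which has no row in the table, was not analysed here. They were divided by the known architecture of their proteins into 11 fibrillar chains, 8 basement membrane chains (the 6 chains of type IV and the multiplexins Col15a1 and Col18a1) and 24 other chains.

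Every culture had first spent 6 h without serum and insulin. Cells then received vehicle (BSA in dilute acid) for 2 h, TGFβ1 at 5 ng/ml for 2 h, or TGFβ1 at 5 ng/ml for 12 h, and each group comprised 2 libraries of stranded total RNA labelled as biological replicates. Vehicle was taken at 2 h only, so at 12 h the length of TGFβ1 exposure and the longer time without serum cannot be told apart. All cells were of a single line, for which no transgene is named, and only RNA counts were analysed here. Libraries held 14705886 to 23786993 counts, and the collagen chains took 0.149 to 0.282% of them. The 10 epithelial markers examined summed to 4961 to 5780 CPM (TMM-normalized counts, scaled to a common depth) with vehicle, 6440 to 6475 at 2 h and 10320 to 10367 at 12 h. Cdh1, Krt8, Krt18 and Krt19 were abundant. At 12 h Krt8 and Krt18 were called higher (log2 fold changes 1.63 and 1.53), Krt19 was called lower (-1.95) and Cdh1 was not called (-0.07). Krt7 was called higher (1.60), and Grhl2, below the filter, had 17 and 27 counts with vehicle, 2 and 12 at 2 h and 0 and 4 at 12 h. The part of these shifts in the collagen results was not tested. Epcam, Cldn3, Cldn7 and Esrp1 had at most 16 counts in any library. In the same libraries the TGFβ response genes Smad7, Skil, Junb and Fn1 were called higher than with vehicle at both times. Tgfbi, from the same list but below the filter, had 6 and 13 counts with vehicle, 27 and 21 at 2 h and 13 and 9 at 12 h.

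A collagen molecule is a rope of chains whose helical part repeats a triplet that starts with glycine. Fibrillar collagens have a long unbroken helix and pack into the banded fibrils of connective tissue. Type IV collagen has many breaks in its helix, and its network is the scaffold of the basement membrane on which epithelial cells rest. The other families link or decorate these structures: type VII forms fibrils that anchor the epidermis, type VI forms beaded microfilaments, and types XII, XVI and XX belong to the group that associates with fibrils. TGFβ is a well known inducer of collagen expression, mostly studied in fibroblasts.

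The triplet repeat could be read in the coding sequences of 42 of the 43 genes (annotation on NCBIM37, the mm9 assembly). Below are 15 codons from the beginning of the longest unbroken stretch, shown because each chain is prominent in the results that follow, with the glycine codon of each triplet in capitals.
Col1a1: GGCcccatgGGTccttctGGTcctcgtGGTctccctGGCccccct
Col5a1: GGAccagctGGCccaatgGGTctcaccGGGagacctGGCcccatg
Col27a1: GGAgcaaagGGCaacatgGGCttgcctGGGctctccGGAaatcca
Col4a1: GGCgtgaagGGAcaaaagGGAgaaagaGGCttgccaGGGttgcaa
Col7a1: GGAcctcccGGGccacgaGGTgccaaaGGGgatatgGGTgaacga
Col6a1: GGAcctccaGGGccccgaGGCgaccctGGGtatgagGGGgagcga
Col6a2: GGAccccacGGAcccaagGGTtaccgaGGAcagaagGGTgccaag
In Col1a1 this stretch ran on for 338 triplets without a break, as it did in Col5a1, and in Col27a1 for 217. Col4a1 had 23 separate stretches of 3 or more triplets, the longest of 40. Col7a1 had 21 stretches, the longest of 75, while Col6a1 and Col6a2 had a longest stretch of 87 triplets each. Across the classes the longest stretch spanned 216 to 344 triplets in the 11 fibrillar chains, 30 to 66 in the 8 basement membrane chains and 28 to 113 in the 23 other chains that were read. The fibrillar range did not overlap with those of the other classes, whereas the basement membrane range lay within that of the other chains.

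**Figure D1:**
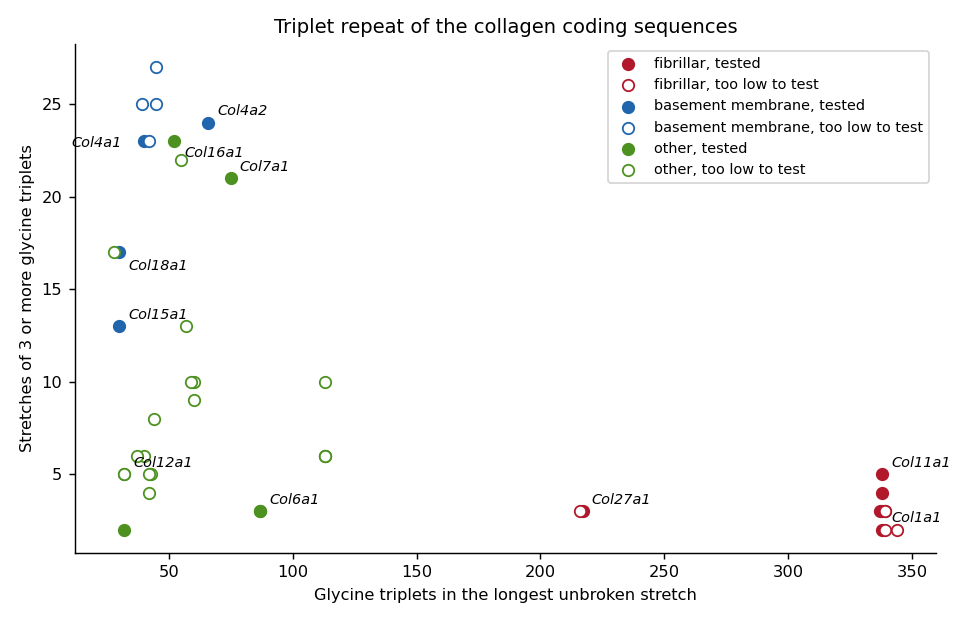
Each point is 1 of the 42 collagen chains read, placed by the number of glycine triplets in its longest unbroken stretch (horizontal axis) and the number of stretches of 3 or more triplets (vertical axis). Colour gives the class and open points are chains too low to test. Fibrillar chains lie at 216 triplets or more, and the type IV chains have 23 to 27 stretches.

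Expression was detected unevenly over the family. Of the 43 chains, 16 reached 2 CPM in at least 2 libraries and were tested: the fibrillar Col1a1, Col5a1, Col5a3, Col11a1, Col11a2 and Col27a1, the basement membrane Col4a1, Col4a2, Col15a1 and Col18a1, and the others Col6a1, Col6a2, Col7a1, Col12a1, Col16a1 and Col20a1. The remaining 27 were too low to judge under this filter. Among these, 9 had no count in any library (Col4a6, Col6a4, Col6a5, Col6a6, Col10a1, Col13a1, Col19a1, Col25a1 and Col26a1) and 10 had at most 3 counts in any library (Col4a4, Col4a5, Col8a1, Col8a2, Col9a1, Col9a2, Col22a1, Col23a1, Col24a1 and Col28a1). A floor of 3 counts corresponds to 0.131 to 0.191 CPM, depending on the library, and covers counting error only.

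The other 8 chains had more than 3 counts in some library but stayed below the filter. Col9a3, a chain of a fibril-associated collagen, had 12 and 10 counts with vehicle, 10 and 12 at 2 h and 27 and 21 at 12 h. Col14a1, of the same family of fibril-associated chains, had 13 and 9 counts with vehicle, 5 and 5 at 2 h and 1 and 0 at 12 h. The highest single-library count was 24 for Col17a1, a transmembrane chain of hemidesmosomes, 12 for Col2a1, the cartilage fibril chain, and 7 for Col4a3. Values this low were given no test in the main analysis. An edgeR fit with no filter called Col14a1 lower at 12 h against vehicle (log2 fold change -4.49, adjusted p = 0.00611) and no other of these chains.

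The partner chains that fibroblasts use to build their main fibrils were in this low group and were split by replicate. Col1a2, which pairs with Col1a1 in type I collagen, had 11 and 0 counts with vehicle, 19 and 4 at 2 h and 28 and 3 at 12 h. Col3a1, the type III chain, had 10 and 1 counts with vehicle, 6 and 0 at 2 h and 13 and 0 at 12 h. Col5a2, which pairs with Col5a1 in type V collagen, had 5 and 0 counts with vehicle, 19 and 1 at 2 h and 20 and 2 at 12 h. In each group the replicate 1 library was the higher for all of these chains: summed over the 3 groups, replicate 1 held 58, 29 and 44 counts of Col1a2, Col3a1 and Col5a2, against 7, 1 and 3 in replicate 2. Total counts were 60617412 and 54752778 for the replicate 1 and replicate 2 libraries together. Col1a1 had no such split, with 357 and 366 counts.

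Markers of other cell types were therefore set beside these values. The 10 fibroblast markers summed to 2.32 to 4.25 CPM in every library, of which only Pdgfra passed the filter. Thy1 and Tcf21 were at 0 in all libraries and Lum, Fap, Postn and Pi16 had at most 1 count in any. Pdgfrb had 0 and 0 counts with vehicle, 2 and 3 at 2 h and 22 and 26 at 12 h. Dcn, a small proteoglycan of fibroblasts, had 10, 11 and 1 counts in the replicate 1 libraries of vehicle, 2 h and 12 h, against 1, 2 and 0 in replicate 2. The summed level of these markers ranged over 2.36 to 3.41 CPM with vehicle, 2.32 to 4.25 at 2 h and 3.95 to 4.01 at 12 h. Endothelial markers (6 genes, with Emcn and Cldn5 at 0) summed to 0.176 to 1.95 CPM, highest at 12 h through Cdh5, and immune markers (6 genes, with Cd3e at 0) to 107 to 180 CPM, mostly Cd14, which was called lower at 12 h (-0.51). The part of other cells in any collagen level was not tested.

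Basement membrane chains dominated the collagen transcripts of these cells. Level per length was taken as CPM per kb of annotated exon, so that long and short chains can be compared. On that scale the basement membrane class summed to 148 ± 0.408 with vehicle (SD, n = 2), which was 63.4% of all collagen, and the fibrillar class to 5.99 ± 0.933, or 2.58%. The other class summed to 79.7 ± 12.6, or 34.1%. Col18a1, Col4a1 and Col6a1 alone made up 29.7, 26.2 and 26.1% of the vehicle total, and Col4a2 and Col6a2 followed with 7.08 and 2.91%.

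With TGFβ1 the summed levels moved apart. In bulk RNA such as this, a change in the number of cells that express a chain and a change of its RNA per cell cannot be told apart. The fibrillar sum was 5.33 and 6.65 CPM per kb in the vehicle libraries, 15.3 and 17.5 at 2 h and 31.7 and 39.4 at 12 h, a ratio to vehicle of 2.74 at 2 h and 5.93 at 12 h. The basement membrane sum was 148 in both vehicle libraries, 218 and 183 at 2 h and 253 and 294 at 12 h, a ratio of 1.36 and then 1.85. These sums of both classes were higher in each treated library than in either vehicle library. The sum of the other class was 88.7 and 70.8 with vehicle, 98.0 and 77.6 at 2 h and 60.8 and 73.1 at 12 h. The vehicle range overlapped with both treated ranges, while both 12 h libraries lay below the 2 h libraries.

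Per kb, fibrillar chains had thus gone at 12 h from 2.58% to 9.43% of the summed collagen level, basement membrane chains from 63.4% to 72.8%, and the other chains from 34.1% to 17.8%. In CPM not divided by length, the fibrillar share went from 3.10% to 9.93% and that of the other chains from 27.5% to 21.6%, but the basement membrane share was 69.4% with vehicle and 68.5% at 12 h, so its increase was seen only per kb. The summed level of the other class also depended on the scale, with a log2 ratio to vehicle at 12 h of 0.55 in CPM, against -0.25 per kb. In that class Col6a1, with 4.11 kb of exon, is short, whereas Col12a1, with 12.2 kb, and Col7a1, with 9.25 kb, are long. Per kb, Col4a1 held the highest level of any chain at 12 h (32.0% of the total), followed by Col18a1 (31.2%), while Col6a1 had dropped from rank 3 to rank 7. Col7a1 went from rank 13 to rank 6.

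**Figure D2:**
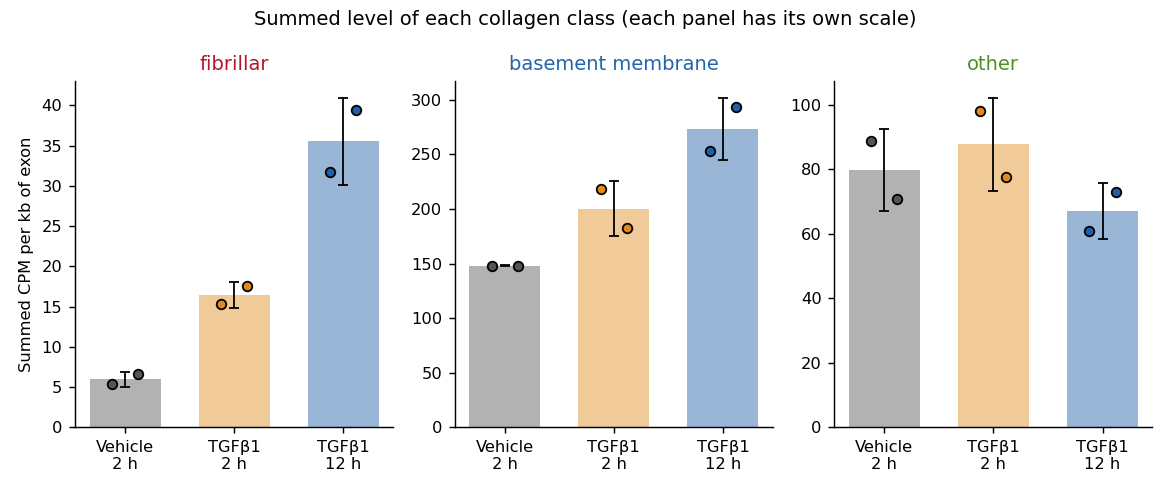
Bars give the mean summed level of each collagen class in CPM per kb of exon for vehicle, TGFβ1 2 h and TGFβ1 12 h, error bars the SD, and points the 2 libraries of each group; the vertical scale differs between panels. The fibrillar sum climbs from 5.99 to 35.5, the basement membrane sum from 148 to 273, and the other class goes from 79.7 to 67.0 with vehicle and 12 h libraries that overlap.

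Tests were run gene by gene with edgeR over the 11080 genes that passed the filter, and a gene was called at an adjusted p under 0.05. At 2 h against vehicle 6 of the 16 tested collagen chains were called higher, namely Col1a1, Col5a1, Col27a1, Col15a1, Col7a1 and Col16a1. Over all genes tested 9.91% were called higher in this comparison. No chain was called lower, beside 5.25% of all genes, and none was lower at an unadjusted p under 0.05 either. The median log2 fold change was 1.07 for the fibrillar, 0.48 for the basement membrane and 0.39 for the other chains tested, beside -0.01 for all genes. Col1a1 passed the filter only through treated libraries, and Col5a3 and Col11a1 only through those at 12 h. The 3 fibrillar chains that reached the filter level with vehicle had a median of 1.43. When an absolute log2 fold change above 1 was also required, 5 chains were higher, against 4.23% of all genes higher and 2.01% lower.

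At 12 h against vehicle 12 of the 16 chains were called higher and 2 lower, beside 21.8% and 21.5% of all genes. By class these were 5 of 6 fibrillar chains, 4 of 4 basement membrane chains and 3 of 6 other chains higher, and Col6a1 and Col6a2 of the other class lower. For Col11a1, Col5a3 and Col1a1 a difference was part of what admitted them, so the counts and medians are given as a description. Median log2 fold changes were 3.37, 1.00 and 0.90 for the fibrillar, basement membrane and other chains tested, beside 0.02 for all genes, and 2.58 for the 3 fibrillar chains that reached the filter level with vehicle. With the added limit on fold change, 10 chains were higher and the same type VI chains lower, against 8.03% and 11.6% of all genes. Col11a2 and Col20a1 were the tested chains without a call.

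**Figure D3:**
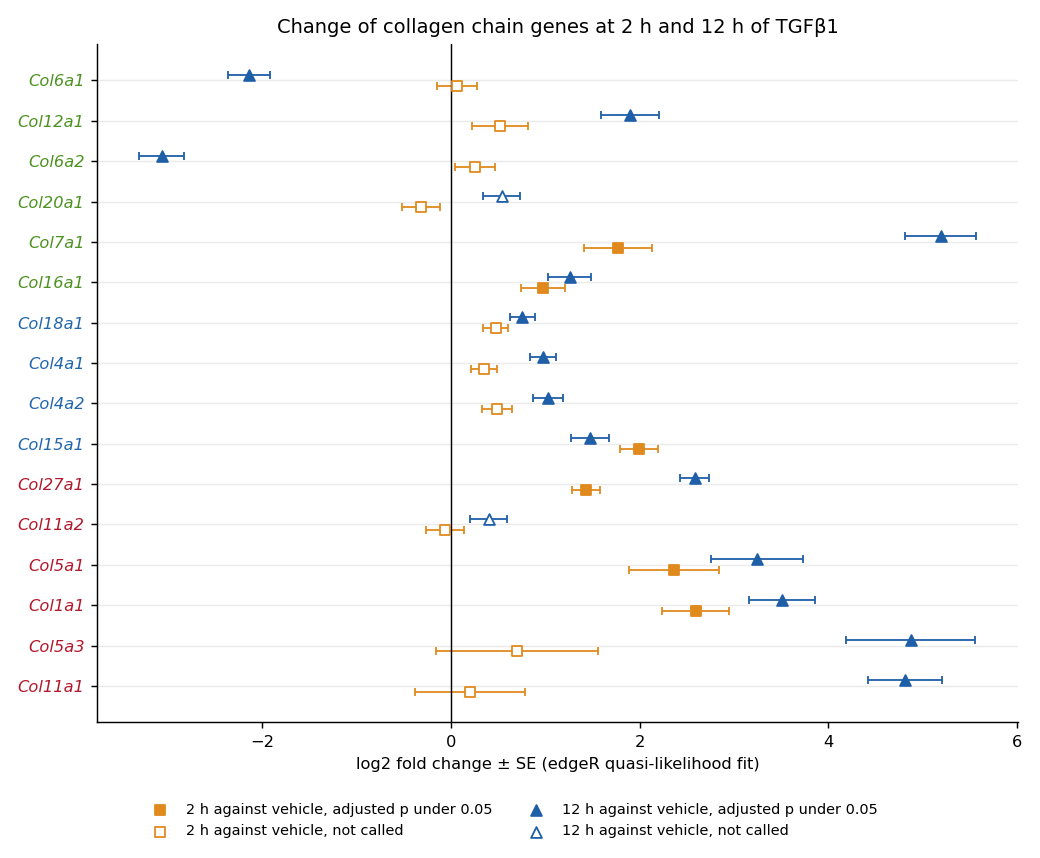
The horizontal axis gives the log2 fold change of each tested collagen chain against vehicle at 2 h (squares) and 12 h (triangles), with the SE from the edgeR fit as bars; filled symbols have an adjusted p under 0.05, and gene labels are coloured red for fibrillar, blue for basement membrane and green for other chains. At 12 h all chains but Col6a1 and Col6a2 lie to the right of 0, from 0.40 for Col11a2 to 5.19 for Col7a1.

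Among the fibrillar chains Col1a1, the major chain of type I collagen, was under the filter level of 2 CPM without TGFβ1. It stood at 0.65 and 1.27 CPM with vehicle, at 4.75 and 6.80 CPM at 2 h and at 10.97 and 10.83 CPM at 12 h. The groups did not overlap and each later pair was higher. Its log2 fold change was 2.59 ± 0.353 (SE) at 2 h (adjusted p = 0.00492) and 3.51 ± 0.350 at 12 h (adjusted p = 0.000436). Even at 12 h it made up only 0.489% of the summed collagen level.

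Col5a1, a chain of type V collagen, which takes part in starting fibrils, differed 2.30-fold between the vehicle replicates. It stood at 3.76 and 8.66 CPM with vehicle, at 25.7 and 38.0 CPM at 2 h and at 39.2 and 77.7 CPM at 12 h, the replicate 2 library being the higher in every group. All treated libraries were above both vehicle libraries. The change was 2.36 ± 0.479 at 2 h (adjusted p = 0.0216) and 3.24 ± 0.486 at 12 h (adjusted p = 0.00234). Without vehicle replicate 1 the call at 2 h was lost (1.88, adjusted p = 0.0940). Without vehicle replicate 2 the change was 3.08 at 2 h and 3.95 at 12 h, and without 12 h replicate 2 it was 2.65 at 12 h.

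Col5a3, another chain of type V collagen, was at 1 and 10 counts with vehicle and at 9 and 13 counts at 2 h, and reached 166 and 254 counts at 12 h. In CPM it stood at 0.06 and 0.64, then 0.46 and 0.66, then 7.23 and 13.0. No call was made at 2 h, where the ranges overlapped (log2 fold change 0.70, adjusted p = 0.634), and at 12 h the change was 4.87 ± 0.683 (adjusted p = 0.00177). The size of that change rested on the vehicle libraries: it was 3.98 without vehicle replicate 1 and 7.28 without vehicle replicate 2.

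Col11a1, a chain of type XI collagen, which is best known from cartilage, moved in the same way. It had 3 and 2 counts with vehicle, 4 and 3 at 2 h, and 97 and 92 at 12 h. The vehicle libraries were at or under the floor of 3 counts. With that floor taken for each vehicle library, the 12 h level was 24.3-fold higher. This is not a strict lower limit, since vehicle replicate 1 itself had 3 counts. The fitted log2 fold change of 4.81 ± 0.389 (adjusted p = 0.000208) depends on the prior count of the fit. Col11a2, which joins Col11a1 in type XI collagen, had 7.29 and 6.37 CPM with vehicle, 7.03 and 6.05 at 2 h and 8.27 and 9.75 at 12 h. It was called at neither time, with log2 fold changes of -0.06 and 0.40 (adjusted p = 0.861 and 0.147).

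Col27a1, which has a shorter helix than the classical fibrillar chains, was the most highly expressed fibrillar gene in each group. It stood at 25.6 and 32.8 CPM with vehicle, at 75.0 and 82.4 CPM at 2 h and at 166 and 184 CPM at 12 h. The 3 groups were clearly apart, and the change was 1.43 ± 0.147 at 2 h (adjusted p = 0.00183) and 2.58 ± 0.151 at 12 h (adjusted p = 6.96e-05). Per kb it contributed 6.11% of the collagen level at 12 h, more than all other fibrillar chains together.

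**Figure D4:**
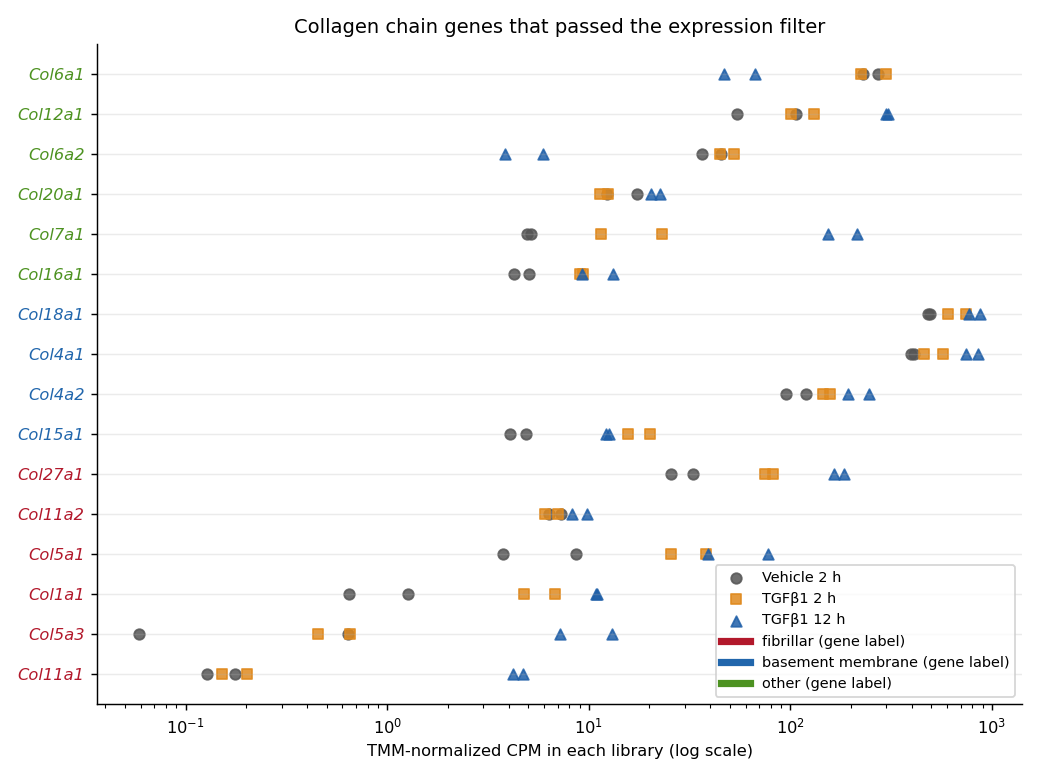
Each row is a tested collagen chain and each symbol 1 library (grey circles vehicle, orange squares TGFβ1 2 h, blue triangles TGFβ1 12 h), on a log axis of TMM-normalized CPM. Col11a1 and Col5a3 stay with vehicle at 2 h and separate at 12 h, Col6a1 and Col6a2 lie to the left of the other groups at 12 h only, and Col15a1 is highest at 2 h.

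Col4a1 and Col4a2, which form the network of most basement membranes, showed small increases. Col4a1 stood at 411 and 399 CPM with vehicle, at 571 and 460 CPM at 2 h and at 740 and 853 CPM at 12 h. Col4a2 stood at 95.6 and 120 CPM with vehicle, at 145 and 157 CPM at 2 h and at 194 and 245 CPM at 12 h. For both genes the groups did not overlap, yet at 2 h neither was called, with log2 fold changes of 0.35 ± 0.138 for Col4a1 (adjusted p = 0.1503) and 0.49 ± 0.160 for Col4a2 (adjusted p = 0.0938). With the replicate number as a block, Col4a2 was called at 2 h (adjusted p = 0.00521), and DESeq2 called it too (adjusted p = 0.0452). At 12 h both were called, at 0.98 ± 0.139 for Col4a1 (adjusted p = 0.00191) and 1.03 ± 0.161 for Col4a2 (adjusted p = 0.00273).

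These genes share a start. Col4a1 runs leftwards from chr8:11312826 and Col4a2 rightwards from chr8:11312805 on NCBIM37, so their annotated first exons overlap by the 22 bases below, shown because the pair moved together (plus strand, chr8:11312805-11312826).
Col4a1/Col4a2: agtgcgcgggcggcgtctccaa
Counting was strand-specific, so that reads over this overlap could be assigned to their gene. Level per kb of Col4a1 relative to Col4a2 was 4.23 and 3.28 with vehicle, 3.88 and 2.88 at 2 h and 3.75 and 3.43 at 12 h. These ratios overlapped between all groups. The related head-to-head pairs were too low to judge: Col4a3 and Col4a4, whose starts lie 72 bp apart, had at most 7 and 3 counts, and Col4a5 and Col4a6, 1309 bp apart, at most 2 and 0.

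The multiplexins, whose cut ends include the endostatins, were highest at 2 h for Col15a1 and at 12 h for Col18a1. They were not tested against each other. Col15a1 stood at 4.88 and 4.07 CPM with vehicle, at 20.0 and 15.6 CPM at 2 h and at 12.7 and 12.2 CPM at 12 h. It was the only tested chain called higher against vehicle whose 12 h libraries lay below both 2 h libraries. The change was 1.99 ± 0.199 at 2 h (adjusted p = 0.00167) and 1.47 ± 0.198 at 12 h (adjusted p = 0.00149). Between 2 h and 12 h it was -0.52 ± 0.185, which was not called (adjusted p = 0.0712) but was with the replicate number as a block (adjusted p = 0.0200). When single libraries were left out, this value ranged from -0.69 to -0.33.

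Col18a1 stood at 491 and 483 CPM with vehicle, at 745 and 606 CPM at 2 h and at 767 and 877 CPM at 12 h, and was the most abundant chain by CPM in each group. The treated libraries were all above vehicle. At 2 h the change of 0.47 ± 0.135 was not called (adjusted p = 0.0635), whereas it was with the replicate block (adjusted p = 0.0200) and with DESeq2 (adjusted p = 0.0156). The change at 2 h was 0.61 without 2 h replicate 2 and 0.30 without 2 h replicate 1. At 12 h it was 0.76 ± 0.135 (adjusted p = 0.00476), a call lost without 12 h replicate 2 (adjusted p = 0.0528).

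In the other class Col7a1, the chain of the anchoring fibrils that skin epithelium makes, was low with vehicle and among the higher tested chains at 12 h. It stood at 4.94 and 5.16 CPM with vehicle, at 11.5 and 23.0 CPM at 2 h and at 154 and 215 CPM at 12 h. The groups were far apart at 12 h, and at 2 h the libraries differed 2.01-fold from each other. The change at 2 h was 1.77 ± 0.361 (adjusted p = 0.0218), a call lost with limma-voom (adjusted p = 0.0611), with the 2 groups fitted alone (adjusted p = 0.0564) and without either vehicle or either 12 h library. At 12 h it was 5.19 ± 0.378 (adjusted p = 0.000147), and between 2 h and 12 h 3.42 ± 0.334 (adjusted p = 0.000833). Without 2 h replicate 2 the change at 2 h was 1.18 and that between 2 h and 12 h was 4.01.

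Type VI collagen went the other way, and only late. Col6a1 stood at 272 and 229 CPM with vehicle, at 299 and 224 CPM at 2 h and at 47.1 and 66.8 CPM at 12 h. Col6a2 stood at 45.3 and 36.3 CPM with vehicle, at 52.7 and 44.8 CPM at 2 h and at 3.83 and 5.95 CPM at 12 h. Vehicle and 2 h overlapped for both genes, and the 12 h libraries were far below. At 12 h the log2 fold change was -2.14 ± 0.221 for Col6a1 (adjusted p = 0.000492) and -3.07 ± 0.240 for Col6a2 (adjusted p = 0.000187), while at 2 h it was 0.06 ± 0.210 and 0.26 ± 0.212 (adjusted p = 0.874 and 0.467). Relative to Col6a2, the level per kb of Col6a1 was 8.79 and 9.23 with vehicle, 8.28 and 7.32 at 2 h and 17.9 and 16.4 at 12 h, so Col6a2 had dropped further. Col6a4, Col6a5 and Col6a6, the longer chains that can complete the type VI molecule, had no count. Col6a3 has no row in the count table, so its level could not be read.

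Col6a1 and Col6a2 lie on the same strand of chromosome 10, with starts 102.538 kb apart (chr10:76171537-76188913 and chr10:76058507-76086375 on NCBIM37). Col18a1, which moved upwards, starts on that strand 440.38 kb from Col6a1.

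Col12a1, a long chain that sits on the surface of fibrils, stood at 107 and 54.7 CPM with vehicle, at 131 and 101 CPM at 2 h and at 298 and 305 CPM at 12 h. The vehicle replicates differed 1.96-fold, more than the treated ones, and vehicle and 2 h overlapped. It was not called at 2 h (0.52 ± 0.297, adjusted p = 0.301), except without vehicle replicate 1 (adjusted p = 0.0365), and was called at 12 h (1.90 ± 0.305, adjusted p = 0.00304). Col16a1 stood at 5.06 and 4.27 CPM with vehicle, at 9.0 and 9.32 CPM at 2 h and at 9.23 and 13.1 CPM at 12 h. Its call at 2 h (0.97 ± 0.231, adjusted p = 0.0362) was lost when any single library was left out (adjusted p = 0.0511 to 0.173), whereas that at 12 h (1.26 ± 0.231, adjusted p = 0.00522) was not.

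Col20a1 stood at 17.4 and 12.3 CPM with vehicle, at 11.4 and 12.4 CPM at 2 h and at 22.6 and 20.4 CPM at 12 h. Both 12 h libraries were above all others. Against vehicle the change at 12 h was 0.54 ± 0.195 and not called (adjusted p = 0.0644), but the replicate block called it (adjusted p = 0.0204). When single libraries were left out, this change ranged from 0.31 to 0.81, highest without vehicle replicate 1. At 2 h the change was -0.32 ± 0.198 (adjusted p = 0.336).

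The last comparison asked which chains were still moving between 2 h and 12 h. From 2 h to 12 h 9 chains were called higher and 2 lower, beside 15.2% and 18.9% of all genes. With the limit on fold change these were 5 and 2 chains, against 4.5% and 9.87% of all genes. The higher chains were the fibrillar Col1a1, Col5a3, Col11a1 and Col27a1, the type IV Col4a1 and Col4a2, and Col7a1, Col12a1 and Col20a1, and the lower chains were Col6a1 and Col6a2. Leaving out either 12 h library cut the higher chains to 4. Col5a1 was not called (0.87 ± 0.430, adjusted p = 0.162) except with the replicate block (adjusted p = 0.00130). Col11a2, Col16a1 and Col18a1 were not called, with log2 fold changes of 0.46, 0.29 and 0.28. That of Col18a1 ranged from 0.14 to 0.44 when single libraries were left out. All 3 comparisons draw on the same libraries, so their calls are not independent of each other.

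Collagen chains start their life in the endoplasmic reticulum, where prolines and lysines are hydroxylated and chaperones hold the chains while they fold. Of 18 genes listed for these steps 15 were tested, and 8 were higher and none lower at 12 h, with a median log2 fold change of 0.40, beside 21.8% and 21.5% of all genes tested and a median of 0.02. At 2 h 3 were higher and none lower, beside 9.91% and 5.25% of all genes. Plod2, a lysyl hydroxylase, went from 50.4 and 50.3 CPM with vehicle to 284 and 253 CPM at 12 h (2.41 ± 0.152, adjusted p = 9.01e-05). Serpinh1, the collagen chaperone HSP47, and Plod1 were higher by 1.17 and 1.01 on the log2 scale. The prolyl hydroxylase subunits P4ha1 and P4hb were not called, with 0.02 and -0.10.

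Outside the cell, propeptides are cut off and the chains are crosslinked. Of 13 genes for these steps 5 were tested at 12 h, with 3 higher and 1 lower, against the same 21.8% and 21.5% of all genes. At 2 h 2 were higher and none lower (9.91% and 5.25% of all genes). Bmp1, which removes the C-propeptide of fibrillar procollagens, went from 81.3 and 86.8 CPM with vehicle to 437 and 483 CPM at 12 h (2.45 ± 0.123, adjusted p = 4.90e-05). The enhancers of this cleavage moved apart: Pcolce2 was higher at 12 h by 2.45 ± 0.217 (adjusted p = 0.000279), while Pcolce went from 95.7 and 91.6 CPM with vehicle to 24.4 and 23.1 CPM (-1.98 ± 0.117, adjusted p = 7.49e-05). The N-propeptide proteases Adamts2 and Adamts14 had no count. Lox, a crosslinking enzyme, was below the filter with 0 and 0 counts for vehicle, 9 and 5 at 2 h and 20 and 23 at 12 h.

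Among 10 collagen receptors 4 were tested, of which 3 were higher and 1 lower at 12 h (all genes 21.8% and 21.5%) and 2 were higher and none lower at 2 h (all genes 9.91% and 5.25%). The integrin subunits Itga2 and Itgb1, which pair into a collagen receptor of epithelia and platelets, were higher by 2.40 and 1.82 on the log2 scale, and the discoidin receptor Ddr1 by 0.52. Itga1 was lower (-0.50). Of 15 partners of type IV collagen in the basement membrane 9 were tested, with 5 called higher and none lower by 2 h (all genes 9.91% and 5.25%). By 12 h 5 of these partners were higher than with vehicle, and the remaining 4 were lower (all genes 21.8% and 21.5%). Lamb1 was higher by 3.74, Lamb3 by 2.10 and Nid2 lower (-1.76) at 12 h. None of the 9 small proteoglycans that bind fibrils passed the filter, and together they summed to at most 3.29 CPM in any library. Of these, Omd had 42 and 11 counts with vehicle, 39 and 9 at 2 h and 15 and 8 at 12 h.

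RefSeq promoter windows cover 250 bases before the start of a gene and 50 after it (table build GRCm38.p6). Only the 250 bases before the start were searched, in these and in all other windows. Windows were available for 14 of the 16 tested chains, 16 in all, but not for Col1a1 and Col12a1. Letters CAGAC, a short site that SMAD proteins bind, read on either strand, were in 8 of the 16 windows, beside 42.2% of all 32851 windows. The AP-1 letters TGANTCA, also read on either strand, were in 1 window, beside 6.75% of all windows. Col7a1, which had a log2 fold change of 5.19 at 12 h, is shown with the 250 bases before its start (chr9:108855381-108855630 on NCBIM37, plus strand), the CAGAC match being in capitals on the opposite strand as GTCTG.
Col7a1: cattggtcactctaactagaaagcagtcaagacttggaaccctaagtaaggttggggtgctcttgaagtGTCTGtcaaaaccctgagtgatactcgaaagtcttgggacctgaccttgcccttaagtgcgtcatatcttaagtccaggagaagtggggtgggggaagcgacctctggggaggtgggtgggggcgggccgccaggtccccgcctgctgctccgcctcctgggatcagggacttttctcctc
Col6a1 held the AP-1 letters, which are shown with their neighbours since this gene fell at 12 h (chr10:76188863-76188889, minus strand, with the match in capitals). The match begins 90 bases before the RefSeq start, but the stretch lies inside the gene as annotated in GENCODE, whose start is further upstream at 76188913.
Col6a1: gctgatgctgTGACTCActcagctttg
Such matches are descriptions of letters in a window and were not tied to binding or to the changes in level.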

How the data were processed

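Total RNA was sequenced from 6 NMuMG libraries in 3 groups of 2 (stranded total RNA kit, HiSeq, single reads of 50 bases). According to the study's methods the authors filtered reads with FASTQ Toolkit, aligned them uniquely to mm9 with subjunc, removed duplicates with SAMtools 0.1.19 and counted reads over UCSC exons by strand with featureCounts, leaving out miRNAs. Removing duplicates of single reads can lower the counts of highly expressed genes. The values used here are the raw gene counts the authors deposited, and the deposited fold changes and p-values were not used. Groups came from the sample labels.

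The test was restricted to genes that reached 2 CPM in 2 libraries or more. It was run in edgeR 4.0.16 (R 4.3.3, quasi-likelihood F test, TMM factors, 1 fit of 3 groups, no block), with Benjamini-Hochberg adjustment within each comparison. The SE is the absolute log2 fold change over the square root of F. Gene lengths and positions came from GENCODE on NCBIM37. On simulated data the test was checked with known fold changes before use. Alternatives were limma-voom 3.58.1 (the test of the study's methods), DESeq2 1.42.0, other size factors and filters, a replicate block, the 2 groups alone and each library left out.

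Deviations of libraries with the same replicate number correlated at 0.708 (vehicle and 2 h), 0.263 (vehicle and 12 h) and 0.392 (2 h and 12 h), so the numbers may pair the samples, although no label or method names a pairing. The main fit has no block, and the blocked value is printed beside it where it changes a call. With 2 libraries a group, whose cultures are called biological replicates without further detail, p-values measure the spread between these libraries only. Precision follows depth, and 3 counts were taken as the floor.

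Members, classes and gene lists were chosen with earlier results of these data known. Every tested chain is named with its values, each untested chain with its highest counts or count range, and from each list up to 3 called genes with the largest log2 fold change at 12 h; P4ha1, P4hb, Adamts2, Adamts14, Lox and Itga1 were added after their values were seen. Marker genes are named to give their levels.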

Additional observations from a re-analysis of the deposited data

Results flagged for a closer look

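For 11 collagen chains the effect at 12 h differed from that at 2 h, as tested by the edgeR comparison of the 12 h and 2 h libraries, which equals the difference between the effects against their common vehicle. Longer exposure and longer time without serum cannot be told apart in it. The difference (log2 scale, 12 h minus 2 h) was 4.61 for Col11a1 (adjusted p = 0.000454), 4.17 for Col5a3 (adjusted p = 0.00344) and 3.42 for Col7a1 (adjusted p = 0.000833). Col11a1 and Col5a3 passed the filter only through the 12 h libraries, so a difference was part of what admitted them, and with 4 and 3 counts at 2 h the fitted value of Col11a1 depends on the prior count. It was 1.38 for Col12a1 (adjusted p = 0.0135), 1.15 for Col27a1 (adjusted p = 0.00177) and 0.91 for Col1a1 (adjusted p = 0.0499). Col20a1 differed by 0.86 (adjusted p = 0.0165), Col4a1 by 0.63 (adjusted p = 0.0145) and Col4a2 by 0.54 (adjusted p = 0.0401). In the other direction were Col6a2 at -3.32 (adjusted p = 0.000356) and Col6a1 at -2.20 (adjusted p = 0.000893). The calls of Col12a1, Col1a1, Col20a1, Col4a1 and Col4a2 were lost without either 12 h library, and those of Col1a1 and Col4a2 also with total counts in place of TMM factors. For each of the 11 genes the 12 h libraries did not overlap with the 2 h libraries.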

How the results depend on the processing

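With 2 libraries a group, small changes could not be judged, and chains under the filter were left out of the main fit. The fibrillar count of 5 higher chains at 12 h became 3 when at least 10 counts were required in every library, which removes Col5a3 and Col11a1. With an absolute log2 fold change above 1, the 4 higher basement membrane chains became 2, and the 9 chains higher from 2 h to 12 h became 5. When single libraries were left out, that count ranged from 4 to 9, the 2 h count from 4 to 6 and the 12 h count from 11 to 13. Total counts without TMM factors moved the median of all genes to -0.12 at 2 h and -0.11 at 12 h, the basement membrane sum at 12 h to a log2 ratio of 0.76 from 0.89, and Col6a1 at 2 h to -0.0525. They also ended the calls of Col16a1 at 2 h (adjusted p = 0.0505) and, from 2 h to 12 h, of Col1a1 (adjusted p = 0.0612) and Col4a2 (adjusted p = 0.0520). Without division by length the other class at 12 h turned to 0.55, and the basement membrane share no longer rose (69.4% with vehicle, 68.5% at 12 h).

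Leaving out single libraries gave log2 fold changes at 2 h of -0.0316 to 0.45 for Col11a1, -0.19 to 0.0401 for Col11a2, -0.20 to 3.11 for Col5a3 and -0.18 to 0.25 for Col6a1, none called. From 2 h to 12 h, calls were lost without either 12 h library for Col12a1, Col20a1, Col4a1, Col4a2 and Col1a1, for Col4a2 also without either 2 h library and for Col1a1 without 2 h replicate 1. Col16a1 at 2 h was lost with limma-voom (adjusted p = 0.0541) and with the 2 groups alone (adjusted p = 0.0533). The replicate block gave 8, 13 and 10 higher chains at 2 h, 12 h and from 2 h to 12 h, and changed no call beyond the 5 given in the report (Col4a2, Col18a1, Col20a1, Col15a1 and Col5a1). With no filter, Col14a1 was lower at 12 h (log2 fold change -4.49, adjusted p = 0.00611). The causes were not tested.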
